A study of Mus musculus with 12 samples.

Results

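Akr1c18, Cyp4b1, Cmah, Pi16, Dpp4 and Cd34 are 6 genes picked from markers of adventitial fibroblasts and from genes that read high on arrays of a sorted mouse bone population called Thy. They are 6 of 18193 genes that had a probe set with a single gene symbol, and 15 of 34945 such probe sets belong to them. The members were chosen on their Thy levels, so every difference between Thy and the other populations below is a description of the 6 genes and carries no test. The study sorted cells of 3 osteoprogenitor populations, Thy, SSC and CSP, from limb, skull, shoulder blade, spine and rib bones of JUN-inducible mice, and measured RNA with 1 Affymetrix array per sample. Each population had 2 arrays labelled JUN, from young mice whose mother drank doxycycline and which were sorted after 2 days of induction, and 2 arrays labelled -JUN, called without JUN here. The CSP and Thy populations stand as BCSP and Thy+ in the study's design text. The labels used here do not say whether the mice without JUN lacked the transgene, the doxycycline or both, and they name no promoter for the transgene, no strain and no exact age. Cells were purified by FACS into Trizol. Mice 4 and 7 gave all arrays with JUN and mice 3 and 3b the Thy and CSP arrays without JUN, while the SSC arrays without JUN came from mice 3 and 10. An array is named here by its mouse.

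The adventitia is the outer coat of blood vessels and, in many organs, of ducts and fascia. In the mouse its fibroblasts are known for Pi16, Dpp4 and Cd34 and they are set apart from parenchymal fibroblasts that carry Col15a1. Pi16 is a secreted or membrane-anchored protein of the CAP family, Dpp4 is a surface peptidase that trims pairs of residues from the ends of peptides, and Cd34 is a heavily glycosylated surface protein of blood progenitors, endothelium and many fibroblasts. The other members are enzymes: Akr1c18 reduces progesterone to a less active steroid in the mouse, Cyp4b1 is a cytochrome P450 that hydroxylates fatty acids and activates some toxins, and Cmah turns the acetylated form of sialic acid into the glycolylated form.

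Values are log2 expression values made by the authors with RMA, so a difference of 1 is a doubling and levels of different genes cannot be set against each other. Array medians lay between 7.65 and 7.76, and a value near or below the median is dim. Thy1, whose protein gives the Thy population its name, read 12.80 to 13.30 in Thy arrays, against 7.28 to 8.90 in SSC arrays and 8.04 to 9.63 in CSP arrays. Jun, the gene to be induced, was not higher with JUN throughout any population. With the brighter of its 2 probe sets it read 13.03 and 12.90 with JUN against 12.81 and 13.65 without in Thy, 13.18 and 12.13 against 12.60 and 12.06 in SSC, and 12.92 and 12.82 against 13.37 and 13.24 in CSP, where the arms were apart with JUN lower. With the other probe set the arms were apart with JUN lower in Thy (11.55 and 11.99 against 12.12 and 12.67) and in CSP (12.39 and 12.01 against 12.79 and 12.53), and they overlapped in SSC. Whether these probe sets read the transgene is not known here. The Thy array of mouse 4 stood apart, with a mean correlation of 0.924 with the other arrays across probe sets against 0.937 to 0.962 for the rest. The arms hold different mice, and mouse 3 alone was high in Xist (12.59 to 13.53 in its arrays, against 4.36 to 7.29 in those of the other mice), the transcript of the inactive X chromosome. Poly-A control probe sets, which read added bacterial transcripts, averaged 10.03 to 10.87 in Thy arrays, 7.74 to 9.95 in SSC arrays and 8.89 to 10.42 in CSP arrays, and their part in the results was not tested for the populations.

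Akr1c18 had the widest gap between populations. It read 12.56 and 12.86 in Thy with JUN and 12.80 and 11.03 in Thy without JUN. In SSC it read 7.87 and 9.28 with JUN and 8.08 and 7.77 without. In CSP it read 7.86 and 7.98 with JUN and 7.34 and 7.06 without. All 4 Thy arrays lay above all 8 other arrays, with a gap of 1.75 between the dimmest Thy array and the brightest other array. Its mean was 12.31 ± 0.87 in Thy, against 8.25 ± 0.70 in SSC and 7.56 ± 0.43 in CSP (SD, n = 4 each). The difference was 4.06 from SSC and 4.75 from CSP with a standard error of 0.37, or 16.7-fold and 27.0-fold. In bulk RNA, more cells of a type and more RNA per cell cannot be told apart, here and for each gene that follows.

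Cyp4b1 was bright in no SSC or CSP array and above the array median only in the 4 Thy arrays. It read 9.51 and 8.37 in Thy with JUN and 8.33 and 7.85 in Thy without JUN. The SSC arrays read 5.93 and 5.82 with JUN and 6.50 and 6.09 without, and the CSP arrays read 6.03 and 6.92 with JUN and 6.86 and 6.13 without. The lowest Thy array was 0.93 above the highest other array. Means were 8.51 ± 0.71 in Thy, 6.08 ± 0.30 in SSC and 6.49 ± 0.47 in CSP (SD, n = 4 each), a difference of 2.43 from SSC and 2.03 from CSP (SE 0.35). The gene was kept for testing only through its Thy arrays.

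Cmah was dim and scattered outside Thy. With its brightest probe set it read 9.70 and 10.27 in Thy with JUN and 10.34 and 9.56 in Thy without JUN. In SSC it read 5.54 and 7.57 with JUN and 7.04 and 8.03 without, and in CSP 7.80 and 6.08 with JUN and 8.12 and 5.58 without. The 4 Thy arrays lay close together while the 8 others were scattered, and the lowest Thy array was 1.44 above the highest other one. The mean was 9.97 ± 0.39 in Thy, against 7.04 ± 1.08 in SSC and 6.90 ± 1.25 in CSP (SD, n = 4 each), which is a difference of 2.93 and 3.07 (SE 0.61).

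Pi16 was already well above the array median outside Thy, and the Thy arrays were tight above it. It read 12.75 and 12.89 in Thy with JUN and 13.06 and 12.87 in Thy without JUN. SSC arrays read 10.53 and 11.09 with JUN and 11.19 and 10.07 without, and CSP arrays read 9.17 and 11.32 with JUN and 9.83 and 10.12 without. The Thy mean of 12.89 ± 0.13 compares with 10.72 ± 0.52 in SSC and 10.11 ± 0.90 in CSP (SD, n = 4 each). The difference was 2.17 from SSC and 2.79 from CSP (SE 0.40), and the gap between the lowest Thy array and the highest other array was 1.43.

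Dpp4 overlapped between populations. It read 10.94 and 12.14 in Thy with JUN and 12.01 and 11.44 in Thy without JUN. In SSC it read 8.85 and 10.96 with JUN and 10.52 and 11.47 without, and in CSP 9.47 and 10.39 with JUN and 10.42 and 9.80 without. The SSC array of mouse 10 lay above the Thy arrays of mice 4 and 3b, and the SSC array of mouse 7 above the Thy array of mouse 4. The difference from SSC was 1.18, or 0.67 without the SSC array of mouse 4, and that from CSP was 1.61 (SE 0.47), on means of 11.63 ± 0.55 in Thy, 10.45 ± 1.14 in SSC and 10.02 ± 0.46 in CSP (SD, n = 4 each).

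Cd34 was bright in all 12 arrays and hardly separated them. It read 13.96 and 14.15 in Thy with JUN and 14.25 and 14.26 in Thy without JUN, against 13.27 and 13.72 in SSC with JUN and 13.93 and 13.51 without. In CSP it read 13.59 and 13.87 with JUN and 14.09 and 13.66 without, so the CSP array of mouse 3 lay above the Thy array of mouse 4. The difference was 0.55 from SSC and 0.35 from CSP (SE 0.19), or 1.46-fold and 1.28-fold. The name Thy-high therefore fits Akr1c18, Cyp4b1, Cmah and Pi16 on every array, while Dpp4 and Cd34 were higher in Thy on average with overlap.

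**Figure D1:**
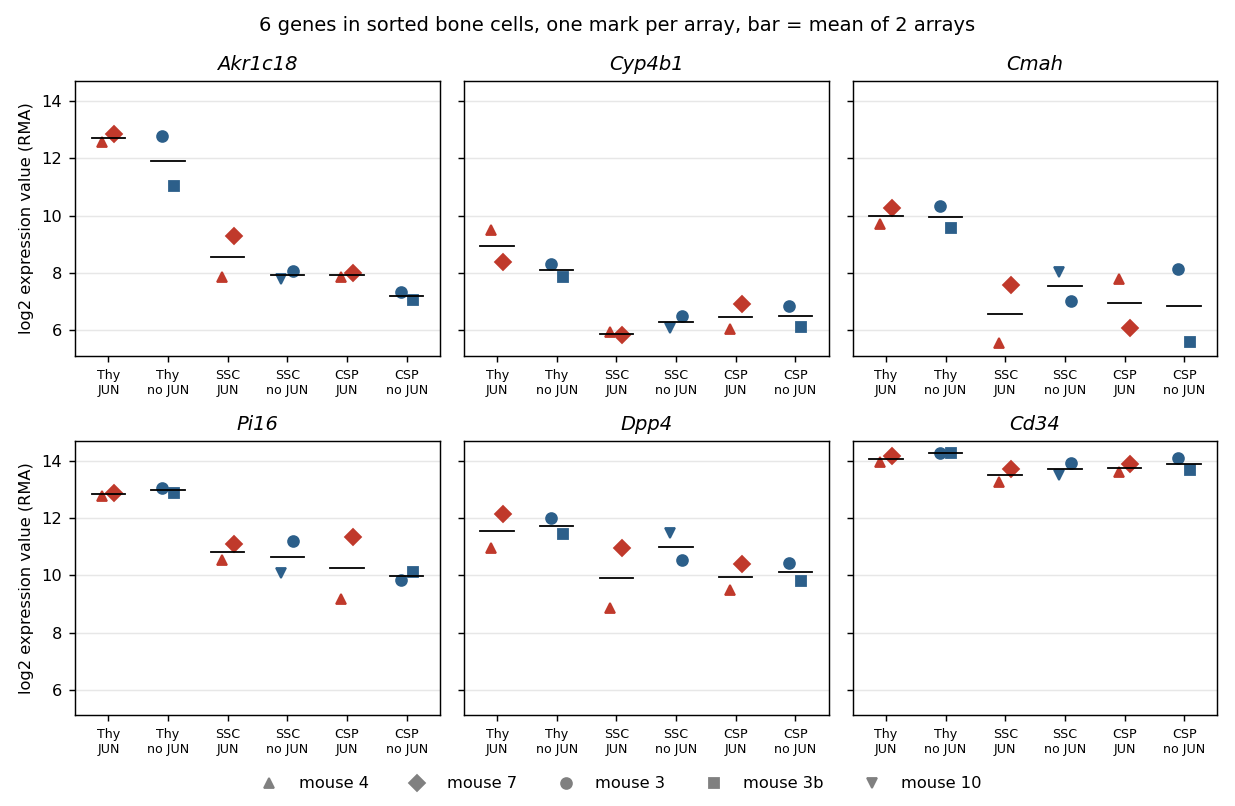
Log2 expression values (y axis, RMA) of the 6 genes in 12 arrays, by population and arm, with 1 mark per array shaped by mouse (red with JUN, blue without) and a bar at the mean of 2 arrays. The Thy arrays of Akr1c18, Cyp4b1, Cmah and Pi16 all lie above the SSC and CSP arrays, while those of Dpp4 and Cd34 overlap them.

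In 4 of the 6 genes all 4 Thy arrays lay above all 8 other arrays, as did 170 of all 12516 genes tested (1.36%). Since the rule used these levels, nothing is read from that share. Without the Thy array of mouse 4, Cd34 joined them and the count was 5 of 6, against 1.97% of all genes. Without the CSP array of mouse 3 the count was also 5. Leaving out an array can only keep or raise such a count. Ordered from the highest positive to the lowest negative difference among 12516 genes, Akr1c18 was second from SSC and first from CSP, with Thy1 first and second. Cmah had rank 4 and 9, Cyp4b1 rank 8 and 55, Pi16 rank 13 and 22, Dpp4 rank 125 and 102 and Cd34 rank 1610 and 2483. Between SSC and CSP the ranges of all 6 genes overlapped. The order of the means was Thy, SSC, CSP for Akr1c18, Cmah, Pi16 and Dpp4, and Thy, CSP, SSC for Cyp4b1 and Cd34, with CSP minus SSC between -0.69 (SE 0.37, Akr1c18) and 0.40 (SE 0.35, Cyp4b1).

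Several genes had more than 1 probe set, and the brightest by mean was used. Of the 15 probe sets 6 had all Thy arrays above all others. Pi16 was read by a second, dimmer probe set, 1422026_at, at 9.26 to 10.49 in Thy, 8.05 to 9.14 in SSC and 6.72 to 9.18 in CSP, with a gap of 0.08. Its correlation with the main Pi16 probe set over the 12 arrays was 0.94. Of the 6 Cmah probe sets, 1428043_a_at and 1421214_at separated Thy without overlap, and the second read 7.75 to 9.90 in Thy, 6.27 to 6.91 in SSC and 5.96 to 6.91 in CSP. Cmah probe set 1436039_at read 9.31, 9.35 and 8.35 in 3 Thy arrays and 6.74 in that of mouse 4, inside the range of the others. The other 3 Cmah probe sets never exceeded the array median and differed by 0.27 to 0.36 from SSC. For Dpp4 no probe set was free of overlap: 1441342_at and 1459973_x_at differed from SSC by 1.11 and 1.01, and 1438279_at, never above the array median, by -0.11.

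**Figure D2:**
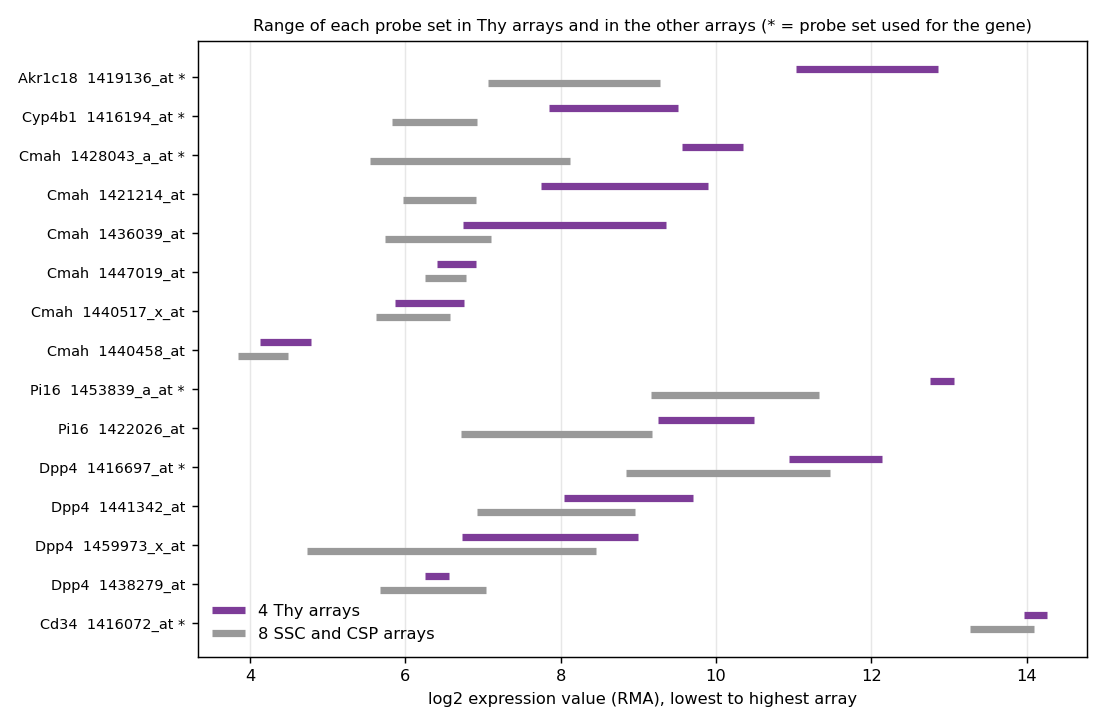
Lowest to highest log2 value (x axis) of each of the 15 probe sets in the 4 Thy arrays (upper bar) and in the 8 SSC and CSP arrays (lower bar), with an asterisk at the probe set used for a gene. The bars are apart for 6 probe sets, of Akr1c18, Cyp4b1, Cmah and Pi16, and overlap for all 4 of Dpp4 and for Cd34.

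Several mice gave more than 1 population, so differences can be read within a mouse if an equal mouse number means an equal animal. In mice 3 and 7 the SSC title has a date and the CSP and Thy titles have none, so for them this was assumed. The SSC title of mouse 10 has the date too, and that of mouse 4 has none. The labels do not say what the date marks. Poly-A control means were 7.74, 8.92 and 8.28 in the dated SSC arrays of mice 3, 7 and 10, and 9.95 in that of mouse 4. The date occurs in SSC only, and its part in the differences between Thy and SSC was not tested. Mice 4, 7 and 3 had both Thy and SSC, and mice 4, 7, 3 and 3b had both Thy and CSP. With the probe set used for each gene, all 6 genes were higher in Thy in each of these mice. Dimmer probe sets did not all follow. Dpp4 probe set 1441342_at read 8.90 in Thy and 8.96 in CSP in mouse 7, and was higher in Thy in every other such comparison. The dim 1438279_at was lower in Thy than in SSC in mouse 3 and than in CSP in mouse 7. Dim Cmah probe sets went both ways too. Probe set 1440458_at was lower in Thy than in SSC and CSP in mice 4 and 7, and 1447019_at lower than in CSP in mice 7 and 3b. Probe set 1440517_x_at was lower in Thy than in SSC in mouse 4 and than in CSP in mouse 7. Akr1c18 differed from SSC by 3.59 to 4.71 and from CSP by 3.96 to 5.46. Cmah differed by 2.70 to 4.16 and by 1.90 to 4.19, and Pi16 by 1.80 to 2.22 and by 1.57 to 3.59. Cyp4b1 differed by 1.82 to 3.59 and by 1.46 to 3.48, and in both comparisons the highest value was that of mouse 4, whose Thy array stood apart. Without that array the Cyp4b1 difference was 2.08 from SSC and 1.68 from CSP. Dpp4, which overlapped across mice, differed within them by 1.18 to 2.09 from SSC and 1.47 to 1.75 from CSP. Mouse 10, whose SSC array lay above the Thy arrays of mice 4 and 3b for Dpp4, had no Thy array. Cd34 differed by 0.32 to 0.69 and by 0.16 to 0.60.

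**Figure D3:**
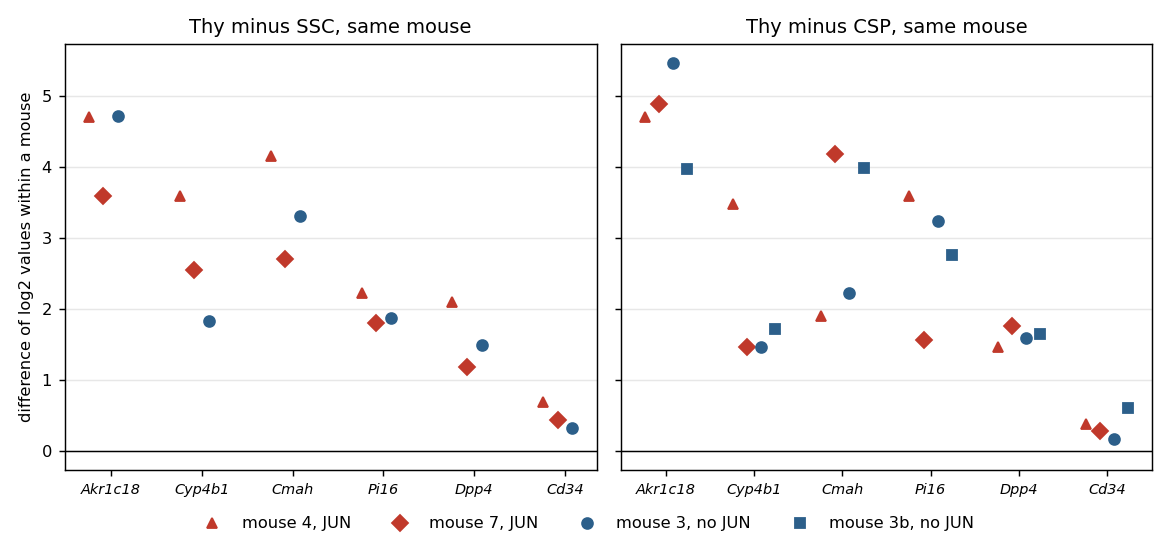
Difference of log2 values within a mouse (y axis), Thy minus SSC in 3 mice on the left and Thy minus CSP in 4 mice on the right. Values are from the probe set used for each gene, with red marks for mice with JUN and blue marks for mice without. Every mark is above 0, and the marks of Dpp4 against CSP sit between 1.47 and 1.75.

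Promoter sequences of the members were searched for 5 short motifs. The 250 bases before the annotated start were read from RefSeq (build GRCm38.p6) for all 6 genes, with 7 starts because Cmah has 2. They are shown for Akr1c18, which had the widest gap, for Cyp4b1, the member with the highest JUN difference in Thy, and for Pi16, the adventitial marker that separated the arrays. The JUN difference of Cyp4b1 did not pass. Each runs from 5′ to 3′ on the strand of the gene, with motif matches in capitals.
Akr1c18, chr13:4150647-4150896, minus strand: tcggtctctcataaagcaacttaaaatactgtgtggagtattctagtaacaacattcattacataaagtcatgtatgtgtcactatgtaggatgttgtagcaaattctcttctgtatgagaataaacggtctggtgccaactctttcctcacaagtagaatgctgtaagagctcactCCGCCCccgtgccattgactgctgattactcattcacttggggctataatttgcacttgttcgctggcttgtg
Cyp4b1, chr4:115647722-115647971, minus strand: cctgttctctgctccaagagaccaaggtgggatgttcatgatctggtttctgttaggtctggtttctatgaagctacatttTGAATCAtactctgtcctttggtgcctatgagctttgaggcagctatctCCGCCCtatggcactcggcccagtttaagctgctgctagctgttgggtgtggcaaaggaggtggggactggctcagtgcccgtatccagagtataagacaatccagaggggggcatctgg
Pi16, chr17:29318632-29318881, plus strand: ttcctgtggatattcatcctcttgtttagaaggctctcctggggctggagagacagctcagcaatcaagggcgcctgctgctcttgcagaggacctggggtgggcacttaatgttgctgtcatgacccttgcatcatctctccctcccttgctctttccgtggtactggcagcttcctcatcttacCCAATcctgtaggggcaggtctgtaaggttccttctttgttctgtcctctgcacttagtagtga
The capitals mark a GC box (GGGCGG, here as its reverse complement CCGCCC) in Akr1c18 and Cyp4b1 and a CCAAT box (CCAAT) in Pi16. In Cyp4b1 they also mark a match to a loose AP-1 pattern (TGANTCA, where N is any base, here TGAATCA). AP-1 sites are bound by JUN with its partners, and whether this form with A at its centre is bound was not tested. Both strands were searched, and the pattern TGANTCA matches the same place on both.

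The AP-1 letters began at position -169 from the start of Cyp4b1 and were in no other member window, against 6.75% of the 32851 windows of the same length over all genes. The GC box began at -73 from the start of Akr1c18 and at -120 from that of Cyp4b1 (32.7% of all windows). The CCAAT box began at -64 from the start of Pi16 and at -85 from 1 of the 2 Cmah starts (33.8% of all windows). A TATA box (TATAAA, 12.4% of all windows) began at -227 from the start of Dpp4, and the letters of a TEAD site (GGAATG, there on the other strand as CATTCC, 12.6% of all windows) at -118. The window of Cd34 held none of these letters. GC content ran from 41.6% in Akr1c18 to 52.4% in Pi16, the value that is also the median of all windows. These matches are descriptions of letters, and binding was not measured.

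The members were chosen on their Thy levels, which by itself raises their correlations over arrays that include Thy. Over the 12 arrays the 15 pairs had Pearson correlations of 0.61 to 0.91 with a median of 0.73, highest for Pi16 with Akr1c18. Over the 8 SSC and CSP arrays alone the same pairs ran from -0.38 to 0.78 with a median of 0.23. In those arrays Cd34 with Cyp4b1 reached 0.78 and Dpp4 with Cmah 0.60, while Pi16 with Cmah was at -0.38. Cyp4b1 was above the array median in 0 SSC and 0 CSP arrays, and Cmah in 1 and 2, so correlations with either rest largely on dim values. All points share arrays and mice, so these are descriptions without a test.

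Genes with the most similar pattern over the 12 arrays were looked up by Pearson correlation among the 12516 genes. As the members were chosen for high Thy levels, such a search mostly finds other genes high in Thy. It was not repeated over the SSC and CSP arrays alone, so no shared control is read from it. The mean of the scaled members was followed most closely by Cadm3, a cell adhesion protein (0.98), Ackr1, a decoy chemokine receptor (0.96), Adamtsl5 (0.95), Kcnj8, a potassium channel subunit of pericytes (0.95), and Wnt2, a secreted signalling protein (0.94). Tmem100, Thy1, Gap43, Gstm2 and Lims2 came next at 0.91 to 0.92. Cadm3 had means of 11.52 in Thy, 9.76 in SSC and 9.73 in CSP, and Ackr1 of 10.93 in Thy, 9.07 in SSC and 9.03 in CSP. The nearest neighbours differed between members. Pi16 and Akr1c18 shared Wnt2 (0.98 and 0.95) and Lims2 (0.97 and 0.94), and Pi16 also had Cd248, the membrane protein endosialin (0.96). Dpp4 was closest to Cd55, a complement regulator (0.96), the matrix protein gene Efemp1 (0.96) and the matrix protease gene Adamts5 (0.92). Cyp4b1 was closest to Pde2a (0.92), the Notch target Heyl (0.92) and Thy1 (0.91), Cmah to Ackr1 (0.91), Efemp1 (0.88) and Zeb2 (0.87), and Cd34 to Il1rl2 (0.91), the receptor kinase gene Axl (0.91) and the thrombomodulin gene Thbd (0.90). Jun correlated with the member mean at 0.13, far down the order.

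Few other adventitial fibroblast genes passed the test. Of a list of 28 further genes 25 had a single-symbol probe set and were tested. This list and those that follow were chosen with earlier results of these data known, so their calls and shares are not independent of these data. In limma with Benjamini-Hochberg adjustment over 12516 genes, Wnt2 and Procr, a receptor for protein C, passed as higher in Thy than in SSC, and Wnt2 passed as higher than in CSP. None was called lower. The background was 0.32% of genes called higher and 0.0719% called lower in Thy than in SSC, and 0.903% called higher and 0.0879% called lower than in CSP. Wnt2 read 11.02 and 11.02 in Thy with JUN and 11.38 and 10.48 without, against 8.31 to 9.49 in SSC and 7.65 to 9.04 in CSP. It differed by 2.10 from SSC (SE 0.36, adjusted p = 0.0379 in limma) and by 2.83 from CSP (SE 0.36, adjusted p = 0.00514 in limma), with Thy above both in 4 of 4 arrays. Procr read 10.94 to 11.82 in Thy, 9.21 to 10.34 in SSC and 10.00 to 10.86 in CSP, a difference of 1.61 from SSC (SE 0.27, adjusted p = 0.0379 in limma), and it did not pass against CSP (adjusted p = 0.142 in limma).

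With each mouse as a block, a paired reading, neither gene passed against SSC (adjusted p = 0.107 for Wnt2 and 0.127 for Procr in limma). In the same blocked fit Wnt2 passed against CSP (adjusted p = 0.00462 in limma) and so did Efemp1 (1.62, adjusted p = 0.0444) and Opcml (1.24, adjusted p = 0.0368), which makes 3 list genes against 1. Both calls against SSC were also lost in 13 of the 17 fits that left out an array or a mouse, among them the fit without the Thy array of mouse 4 (adjusted p = 0.102 for Wnt2 and 0.0906 for Procr in limma).

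The rest of the list did not pass, and its values are given as such. Because of how the list was chosen, nothing is read from its shares beside those of all genes. Of the 25 genes 24 had a positive difference from SSC and 24 from CSP, with medians of 0.72 and 0.65, beside 7225 of 12516 genes positive from SSC and 6828 from CSP at medians of 0.09 and 0.04 over all genes. In 8 of the 25 list genes, against 1.36% of all genes, all Thy arrays lay above all others: Cd248, Cd55, Wnt2, Mfap5, Procr, Creb5, Has1 and Pla1a. Cd248 differed by 1.07 from SSC and 1.18 from CSP, Has1, a hyaluronan synthase, by 1.58 and 0.94, the phospholipase gene Pla1a by 1.55 and 1.36, and Efemp1 by 1.29 and 1.62. Further differences from SSC were 0.97 (Emilin2), 0.96 (Dact2), 0.92 (Gfpt2), 0.91 (Igfbp6), 0.85 (Clec3b), 0.83 (Anxa3), 0.72 (Cd55), 0.55 (Mfap5), 0.53 (Opcml) and 0.47 (Pcolce2). The remaining genes, Sema3c, Tnxb, Creb5, Limch1, Col14a1, Dpt, Ackr3 and Il33, differed from SSC by 0.13 to 0.46. Cd9, a tetraspanin, was the member of the list with negative differences, at -0.44 from SSC and -0.13 from CSP. The per-array means of the list were 11.96 to 12.35 in Thy, 11.21 to 11.58 in SSC and 11.32 to 11.69 in CSP, without overlap.

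Lists of other fibroblast genes were read in the same way and with the same limit. Of 15 tested genes of Col15a1 fibroblasts none was called higher in Thy, and Fibin, a secreted protein gene, was called lower than in CSP, with means of 11.57 in Thy and 12.57 in CSP (SE of the difference 0.19, adjusted p = 0.0245 in limma, and 0.0581 with each mouse as a block). The medians were 0.31 from SSC and -0.09 from CSP, and Col15a1 itself had means of 12.40 in Thy, 12.32 in SSC and 12.49 in CSP. Of 17 pan-fibroblast genes Thy1 alone was called, as higher in both comparisons, and the medians were 0.19 and 0.07. The protein of Thy1 gives the sorted population its name, so its call follows from the sort and says nothing about the list. Pdgfra, a growth factor receptor of mesenchymal cells, had means of 12.59 in Thy, 12.43 in SSC and 12.86 in CSP, and Col1a1, the main bone collagen gene, 15.38 in Thy, 15.05 in SSC and 15.20 in CSP. Of the pan-fibroblast genes 0 stayed at or below the median in every array. The difference between the lists was not tested.

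**Figure D4:**
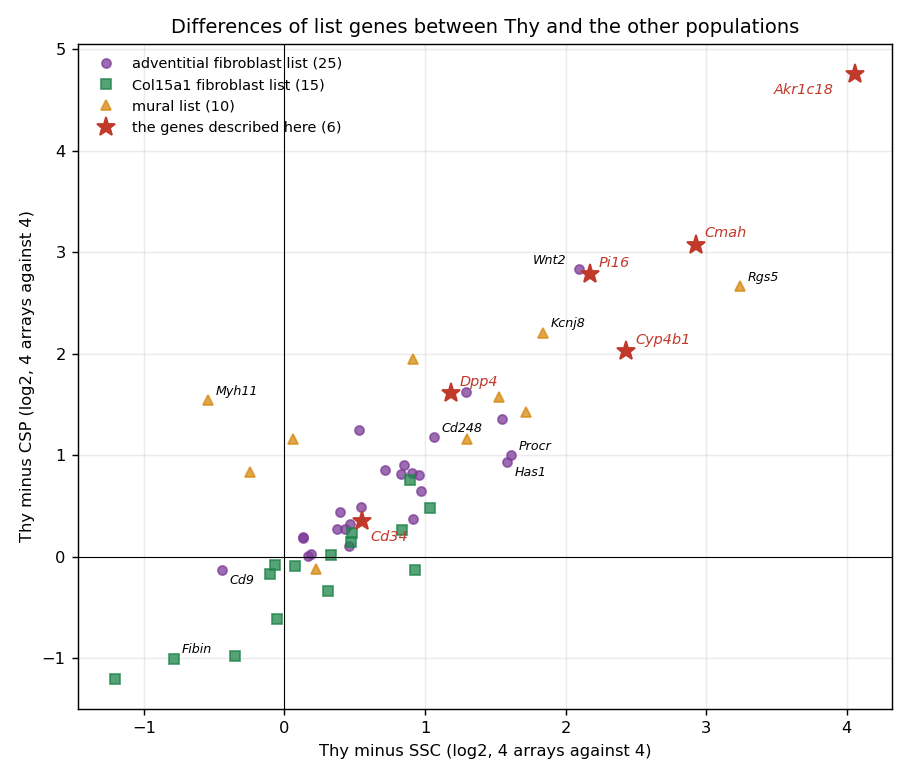
Thy minus SSC (x axis) against Thy minus CSP (y axis) in log2 units, 4 arrays against 4, for the 6 genes described here (stars), 25 adventitial fibroblast genes (circles), 15 Col15a1 fibroblast genes (squares) and 10 mural genes (triangles). Akr1c18 lies at 4.06 and 4.75, the circles lie mostly between 0 and 1.6 on both axes with Wnt2 beyond, and the comparisons share the Thy arrays.

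Relatives of the members were read beside the shares of all genes called, here and in the next paragraph. Those shares were 0.32% higher and 0.0719% lower in Thy than in SSC, and 0.903% higher and 0.0879% lower than in CSP. At such shares a list of this size would hold few calls or none, so nothing is read from its count. Of 17 tested genes of steroid reduction and related aldo-keto reductases 0 passed in limma against SSC or CSP (lowest adjusted p = 0.0989, for the bile acid enzyme gene Hsd3b7 at 0.71 from SSC), with medians of 0.04 and 0.13. Akr1c14, the gene next to Akr1c18 and a reductase of steroids in its own right, had the widest differences of this list, 1.66 from SSC and 2.32 from CSP (SE 0.76, adjusted p = 0.284 and 0.243 in limma). It read 7.20 and 9.19 in Thy with JUN and 10.03 and 8.64 in Thy without JUN, against 4.48 to 8.45 in SSC and 4.98 to 7.27 in CSP, so it overlapped. Akr1c12 had means of 8.71 in Thy, 8.67 in SSC and 8.78 in CSP. Of 20 tested genes of cytochromes P450, retinoid oxidation and detoxication Adh7, a retinol-oxidising alcohol dehydrogenase, was called higher than in CSP. It read 9.14 and 9.27 in Thy with JUN and 9.10 and 9.48 without, against 7.70 to 8.66 in SSC and 7.54 to 8.68 in CSP, a difference of 1.35 from CSP (SE 0.29, adjusted p = 0.0494 in limma) and 1.06 from SSC (adjusted p = 0.124 in limma). The call of Adh7 was lost in 14 of the 17 fits that left out an array or a mouse, among them that without the Thy array of mouse 4 (adjusted p = 0.0929 in limma). With each mouse as a block Cyp26b1, which breaks down retinoic acid, passed as well against CSP (1.24, adjusted p = 0.0408 in limma).

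Of 23 tested genes of sialic acid metabolism 0 passed (lowest adjusted p = 0.0871 in limma, for the sialyltransferase gene St6gal1 at 0.98 from CSP). Cmas, which makes the activated sialic acid that Cmah hydroxylates, had means of 10.39 in Thy, 10.56 in SSC and 10.46 in CSP. St3gal6, a sialyltransferase, had the lowest p against SSC and differed by -1.78 (adjusted p = 0.141 in limma). Of 21 tested genes of dipeptidyl peptidases and their substrates 0 passed (lowest adjusted p = 0.0623 in limma, for Dpp6 at 1.24 from SSC), and against CSP the lowest adjusted p was 0.107, for the peptidase gene Prep at 0.77. Of 5 tested CAP family genes 0 passed, and Crispld1 had the widest difference at -1.50 from SSC and -1.64 from CSP (adjusted p = 0.106 and 0.0692 in limma). Of 6 tested relatives and ligands of Cd34, Sele, an endothelial adhesion molecule, was called higher than in SSC (2.42, SE 0.45, adjusted p = 0.0447 in limma) and not against CSP (0.37). With each mouse as a block the adjusted p of Sele was 0.140 in limma, and 16 of the 17 fits that left out an array or a mouse lost the call.

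Genomic neighbours of the members were looked at for differences in the same direction. The 3 protein-coding genes on each side make 36 genes, of which 19 were tested, and 0 were called in either comparison (lowest adjusted p = 0.126 in limma). Of all genes 0.32% were called higher in Thy than in SSC and 0.903% higher than in CSP, so nothing is read from that count. Their differences ran from -1.33 to 1.66 from SSC and from -1.14 to 2.32 from CSP, with Akr1c14 at the upper end of both. Fap, a fibroblast peptidase gene close to Dpp4, read 12.15 to 13.20 in Thy, 12.47 to 13.78 in SSC and 13.14 to 13.64 in CSP.

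Markers of other cell types found in bone differed as well. Of 10 mural genes, which mark pericytes and smooth muscle, Rgs5, Notch3 and Des were called higher in Thy than in SSC, and 6 were called higher than in CSP. Rgs5 differed by 3.24 from SSC and by 2.66 from CSP (SE 0.27, adjusted p = 0.000300 and 0.00132 in limma). Notch3 differed by 1.72 and 1.42 (adjusted p = 0.0379 and 0.0429 in limma) and the desmin gene Des by 1.30 and 1.16 (adjusted p = 0.0379 and 0.0259 in limma). Mcam differed from CSP by 1.95 (adjusted p = 0.00863 in limma). With each mouse as a block the calls of Notch3 and Des were lost against SSC (adjusted p = 0.133 and 0.140 in limma) and CSP (adjusted p = 0.0574 and 0.0547 in limma), and those of Rgs5 held. The mean of the 10 mural genes was 11.50 to 12.11 in Thy arrays, 10.55 to 10.94 in SSC arrays and 10.23 to 10.41 in CSP arrays. Of the 10, 0 stayed at or below the median in every array, and the smooth muscle gene Myh11 had means of 10.89 in Thy, 11.43 in SSC and 9.35 in CSP. The part of mural RNA in the levels of the 6 genes was not tested.

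Of 8 tested endothelial genes Esam was called higher in both comparisons (1.61 and 1.67, adjusted p = 0.0379 and 0.0142 in limma, and 0.140 and 0.0317 with each mouse as a block). Of the 8 genes 7 were positive from SSC and 3 from CSP, with medians of 0.53 and -0.26. Cldn5 differed by 1.49 and -0.98 and Tie1 by 1.26 and -0.19 from SSC and CSP, and neither passed (adjusted p = 0.191 and 0.152 against SSC in limma). The further defining genes Pecam1, Cdh5 and Kdr had means of 7.62, 8.77 and 7.63 in Thy, 6.91, 8.70 and 7.67 in SSC and 8.43, 9.10 and 8.83 in CSP. The endothelial list averaged 8.18 to 9.13 in Thy arrays, 7.70 to 8.12 in SSC arrays and 8.32 to 9.23 in CSP arrays. Blood progenitor genes, which Cd34 would also mark, had 2 of 8 genes tested and 6 below the median in every array. Of 10 leukocyte genes 5 were tested and 0 passed (adjusted p of 0.131 or more against SSC in limma), though all 5 had an unadjusted p under 0.05 against SSC. So did 2210 of all 12516 genes. Of the 5 leukocyte genes 4 were higher in Thy than in SSC, such as Coro1a, an actin-binding protein of white blood cells (1.13 from SSC and 0.93 from CSP), and Cd68, a macrophage marker, was lower (-0.70 and -0.76). The leukocyte list averaged 7.82 to 8.26 in Thy arrays, 7.23 to 7.66 in SSC arrays and 7.62 to 8.31 in CSP arrays, near the array median, with Thy above SSC without overlap. Of 8 tested skeletal muscle genes 0 passed (lowest adjusted p = 0.397 in limma). Schwann cell genes Sox10 and Mbp were higher than in CSP (3.06 and 2.88, adjusted p = 0.00272 and 0.0217 in limma), and their list averaged 9.65 to 11.37 in Thy, 10.25 to 11.28 in SSC and 8.36 to 8.93 in CSP. The part of these cells in the members' levels was not tested.

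Some genes of the bone, fat and tendon lineages were lower. Col22a1, on the osteoblast list, was lower in Thy than in both populations (-2.23 and -2.18, adjusted p = 0.0379 and 0.0193 in limma), as was Car3 on the adipocyte list (-3.83 and -2.88, adjusted p = 0.0165 and 0.0233 in limma), while Adipoq was lower than in SSC (-2.42, adjusted p = 0.0296 in limma). With each mouse as a block those 3 calls against SSC were lost (adjusted p = 0.113, 0.113 and 0.137 in limma). Of 6 tested osteoblast genes 1 was positive from SSC and 2 from CSP, with medians of -2.50 and -0.85. The osteoblast list averaged 8.40 to 8.78 in Thy, 9.98 to 11.49 in SSC and 7.87 to 10.51 in CSP. Of 5 tested adipocyte genes 0 were positive from SSC and 1 from CSP, with medians of -0.50 and -0.34. The 10 cartilage genes all had negative differences and did not pass, and in the blocked fit 5 of them passed as lower than in CSP. The list averaged 8.95 to 10.17 in Thy, 10.59 to 13.41 in SSC and 10.19 to 13.39 in CSP. Tnmd, a tendon gene, was lower than in CSP (-1.18, adjusted p = 0.00816 in limma). Of 8 tested tendon genes 3 were positive from SSC and 2 from CSP, with medians of -0.12 and -0.51.

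Among surface molecules related to such sorts, Thy1 differed by 4.70 from SSC and 4.51 from CSP (SE 0.34). Where the protein of such a gene was used in the sort, a difference of the gene follows from the sort and is a description. Eng, the endoglin gene, was higher than in SSC (1.54, SE 0.24, adjusted p = 0.0287 in limma, and 0.121 with each mouse as a block) and at -0.03 from CSP (adjusted p = 0.977 in limma). Cd200, Itgav, Enpep and Tek had adjusted p-values of 0.265 to 0.865 against SSC and 0.425 to 0.981 against CSP in limma. With each mouse as a block, Tek, an endothelial receptor gene, passed as higher than in CSP (1.09, adjusted p = 0.0481 in limma).

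The JUN comparisons did not enter the choice of the genes and were tested. No member passed in any population, and of all 12516 genes 0 (0%) were called in Thy, SSC, CSP, on average over the populations or for a JUN effect that differed between populations. At an unadjusted p under 0.05 the counts were 3.04% of genes in Thy, 6.5% in SSC, 2.3% in CSP, 12.5% for the average and 1.15% for the difference between populations, and no member was among them. Without mouse 7, 175 genes were called in Thy, 282 in SSC and 495 for the average, and no member was among them. Each arm of a population held 2 arrays, and the arms held different mice, so JUN and mouse cannot be told apart. The average and the difference between populations took arrays of the same mouse as separate, so their p-values count a mouse more than once. Arms of 2 arrays can lie apart by chance, and the share of all genes whose arms were apart was not counted. Nothing is read from arms that lie apart, for the members below or for Jun above.

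Akr1c18 was higher with JUN on average in each population, by 0.80 in Thy, 0.64 in SSC and 0.72 in CSP (SE 0.57 each). None passed (adjusted p = 0.985, 0.732 and 0.995 in limma). The CSP arrays did not overlap between arms (7.86 and 7.98 with JUN, 7.34 and 7.06 without), while those of Thy and SSC did. The average over the populations was 0.72 (SE 0.33, unadjusted p = 0.0518, adjusted p = 0.396 in limma). The arrays with JUN came from the same mice in every population, so the populations are not separate evidence. The SE and p of the average take arrays of a mouse as separate. In Thy the value rested on the array of mouse 3b, and without it the difference was -0.08. In SSC it rested on the array of mouse 7, without which it was -0.06.

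Cyp4b1 differed by 0.86 in Thy (SE 0.46, adjusted p = 0.985 in limma), with 9.51 and 8.37 with JUN against 8.33 and 7.85 without so that the arms were apart by a narrow margin. Without the Thy array of mouse 4 it was 0.29. In SSC, where the arms were apart the other way, it differed by -0.42 and in CSP by -0.02 (SE 0.46, adjusted p = 0.775 and 0.998 in limma), and the difference between populations did not pass (unadjusted p = 0.178, adjusted p = 0.9997 in limma). Every SSC and CSP value of Cyp4b1 was below the array median. Cmah differed by 0.03 in Thy, -0.98 in SSC and 0.09 in CSP (SE 0.90, adjusted p = 0.998, 0.741 and 0.996 in limma), and its arms overlapped in each population.

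Of the adventitial markers, Dpp4 with its brightest probe set was lower with JUN in all 3 populations on average, by -0.19 in Thy, -1.09 in SSC and -0.18 in CSP (SE 0.68, adjusted p = 0.987, 0.690 and 0.995 in limma). With that probe set the SSC value rested on the array of mouse 4 at 8.85, without which it was -0.04. The dimmer Dpp4 probe sets were not tested. Probe set 1441342_at differed by -1.02 in Thy, -1.22 in SSC and 0.57 in CSP, with the arms apart in Thy and SSC. Probe set 1459973_x_at differed by -1.12, -1.69 and -0.65 with overlap, and 1438279_at, never above the array median, by 0.01, -0.84 and 0.60. Pi16 differed by -0.15 in Thy, 0.18 in SSC and 0.27 in CSP (SE 0.61, adjusted p = 0.989, 0.932 and 0.995 in limma). Cd34 differed by -0.20 in Thy, -0.22 in SSC and -0.14 in CSP (SE 0.31, adjusted p = 0.985, 0.826 and 0.995 in limma). In Thy its arms did not overlap, at 13.96 and 14.15 with JUN against 14.25 and 14.26 without. The standard errors of the members in a population ran from 0.31 (Cd34) to 0.90 (Cmah).

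**Figure D5:**
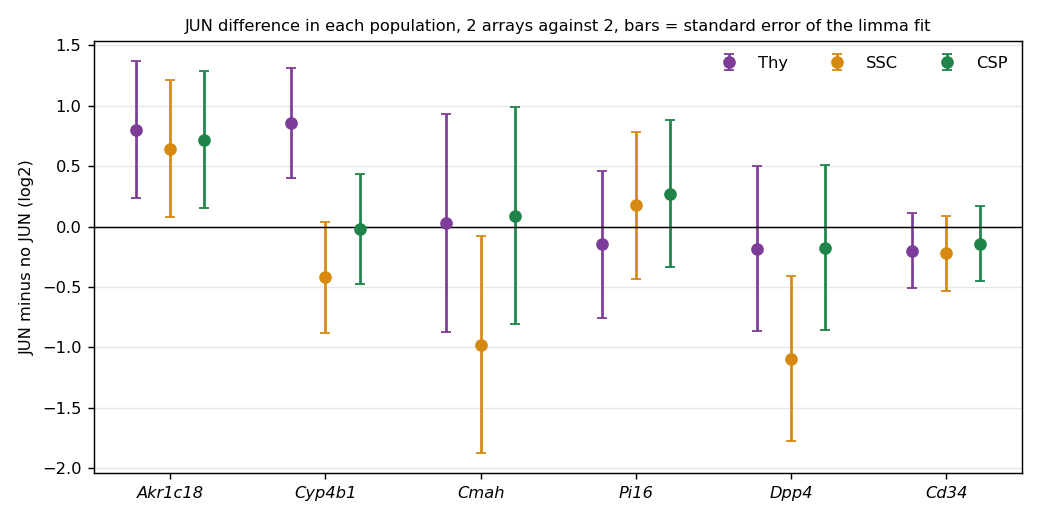
JUN minus no JUN in log2 units (y axis) for each of the 6 genes in Thy, SSC and CSP, 2 arrays against 2, with the standard error of the limma fit as bars. Akr1c18 lies between 0.64 and 0.80 in all 3 populations, Cyp4b1 at 0.86 in Thy, and none passed the threshold.

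The 25 adventitial list genes showed no common JUN difference. Their median was -0.02 in Thy, -0.03 in SSC and 0.07 in CSP, with 12, 11 and 14 genes positive, beside medians of 0.04, 0.08 and 0.07 over all genes. In Thy 53.6% of all genes were positive, in SSC 56.3% and in CSP 57.0%. The JUN differences of the list genes in the 3 populations rest on the same mice.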

How the data were processed

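RNA of 12 sorted samples was measured on Affymetrix arrays. The authors' deposited values are log2 expression; the submitters' processing notes name RMA without a version or settings, and that the scale is log2 follows from the range of 3.20 to 15.99. RMA gives all arrays a common distribution, which hides a change of total RNA. Precision is limited by the number of arrays. The members and lists were chosen with earlier results of these data known.

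Of 45101 probe sets 64 controls were left out, and 34945 had 1 gene symbol in the platform annotation, 932 several and 9160 none. Probe sets above the array median in at least 2 arrays were kept (26560), and the brightest by mean stood for a gene (12516 genes). Tests used limma 3.58.1 in R 4.3.3 (lmFit, eBayes, two-sided, Benjamini-Hochberg adjusted, threshold 0.05), tested on simulated data: JUN within 6 group means, populations with the arm as covariate. Errors are SD for means and SE of the fit for differences. Beyond the mouse numbers, nothing says that samples of a group came from separate animals, so p-values speak only of the spread among these arrays. Titles with the same mouse number pair arrays as the same animal, and deviations of such arrays from their group means correlated at -0.21 to 0.43. The blocked fit used population and mouse. Figures and counts used Python 3.11.15 and pandas 2.3.3. All probe sets of the members, all genes of the adventitial and surface lists, for other lists up to 4 genes, taken from those of lowest p in each comparison, with any that passed, and for likeness the genes of highest correlation were named, with predicted models skipped; beyond these, defining markers and genes of interest to a pathway were named after values were seen. Alternatives were the filter, the probe set rule, the prior, renormalisation, array weights, blocks, covariates, fewer arrays and each array or mouse left out.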

Additional observations from a re-analysis of the deposited data

Results flagged for a closer look

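In the Thy arrays Akr1c18 read 11.03 in replicate 2 without JUN, the array of mouse 3b, while the other 3 Thy arrays read 12.56 to 12.86. The array was marked because its distance to the nearest of the others took up most of the range of the group. Among 18 such checks, 6 genes in 3 populations, 1 array was marked, and chance marks about 1 in 20 groups. Even at 11.03 the array lay above the highest SSC array (9.28) and CSP array (7.98). Cyp4b1 at 7.85 and Cmah at 9.56 were also lowest in that array among the 4 Thy arrays, while Pi16 read 12.87, Dpp4 11.44 and Cd34 14.26 there, which were not the lowest.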

How the results depend on the processing

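The JUN comparisons rest on 2 arrays in each arm of a population and on mice that differ between arms, and all values had already been summarised by RMA. Under all alternatives the 300 Thy differences of the 6 genes kept their sign and stayed within 1 SD of the reported value. The 700 values of called list genes kept their sign, and 259 no longer passed. Of 612 JUN differences of the 6 genes 66 changed sign and 0 passed (lowest adjusted p = 0.0563 in limma, for the average of Dpp4 without mouse 7). The cause of these changes was not tested.

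The reported counts were 49 genes called between Thy and SSC, 40 of them higher in Thy and 2 of these on the adventitial list, and 124 between Thy and CSP, with 113 higher and 1 on the list. No filter on dim probe sets gave 24, 19 and 1 against SSC. The mean of the probe sets of a gene gave 75 against SSC and 4 list genes, and 2 list genes against CSP. A trended robust prior and a repeated quantile normalisation each gave 2 list genes against CSP. Subtracting array medians gave 74, 64 and 4 against SSC and 2 list genes against CSP. Array weights gave 507, 361 and 7 against SSC and 247, 206 and 4 against CSP. The paired fit with each mouse as a block gave 4, 4 and 0 against SSC and 3 list genes against CSP. It changed calls of the named genes only where the report gives the blocked value, and for the mural gene Acta2 against CSP (adjusted p = 0.0512 in limma), named after its value was seen. Fits of fewer arrays gave 16, 9 and 1 for Thy and SSC alone and 2 list genes for Thy and CSP alone.

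JUN differences that changed sign were, with the mean of probe sets, Pi16 in SSC (-0.011), Cmah in CSP (-0.0046) and Cmah in Thy (-0.49). Cyp4b1 in CSP became 0.088 after a repeated quantile normalisation, 0.016 after subtracting medians and 0.25 with sex as a covariate, which also gave 0.022 for Pi16 in Thy and 0.10 for the average of Cmah. With the replicate number as a block the average of Pi16 was -0.18. With the poly-A control level as a covariate, Dpp4, Cd34 and Cmah in SSC were 0.11, 0.29 and 1.04, Dpp4 and Cd34 in CSP were 0.64 and 0.20, and the averages of Dpp4, Cd34, Cyp4b1 and Cmah were 0.24, 0.12, -0.12 and 0.93.

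Leaving out each array or mouse (17 fits) gave 3 to 304 genes called between Thy and SSC, 3 to 224 of them higher and 0 to 5 on the list, and 17 to 155, 17 to 133 and 0 to 2 between Thy and CSP. The lowest totals came without mouse 3, the highest without the SSC array of mouse 4. Genes called for JUN numbered 0 to 282 in SSC, 0 to 2 in CSP, 0 to 175 in Thy and 0 to 495 for the average, the highest without mouse 7, or for CSP without mouse 4. Genes with all Thy arrays above all others numbered 174 to 382, the highest without the CSP array of mouse 7. They held 4 to 5 of the 6 genes and 8 to 11 of the list, a check chosen after seeing the data. Leaving out an array cannot lower these counts, so the check could not have weakened them. JUN differences in SSC ran from -0.38 to 0.74 for Pi16, -0.45 to 0.0057 for Cd34, -0.062 to 1.35 for Akr1c18 and -1.99 to 0.035 for Cmah. In CSP they ran from -0.80 to 1.35 for Pi16, -0.64 to 0.28 for Dpp4, -0.36 to 0.072 for Cd34, -0.46 to 0.42 for Cyp4b1 and -1.18 to 1.36 for Cmah. In Thy they ran from -0.79 to 0.42 for Dpp4, -0.082 to 1.69 for Akr1c18 and -0.36 to 0.42 for Cmah. The averages ran from -0.37 to 0.57 for Pi16, -1.19 to 0.22 for Dpp4, -0.063 to 0.41 for Cyp4b1 and -0.84 to 0.14 for Cmah. Where an arm kept 1 array, its spread was taken from the other groups.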
